A study of Mus musculus with 6 samples.

Results

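The genes described here make up the core of the MHC class I presentation route in the mouse. They are the heavy chains H2-K1, H2-D1 and H2-T23, the light chain B2m, the peptide transporter subunits Tap1 and Tap2, the loading chaperone Tapbp (tapasin) and the immunoproteasome subunits Psmb8, Psmb9 and Psmb10. Every probe set whose platform symbol, alone or among several, was one of these 10 genes was taken, which gave 30 of the 22690 probe sets on the arrays. Of these 30, 25 carried 1 symbol and 5 carried several. All 10 genes had at least 1 probe set. None of their probe sets was removed for low signal, and 22 of the 30 lay above the median level of all probe sets.

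Cells separated with magnets as CD4+CD25+, the surface phenotype used to enrich regulatory T cells (Treg), were profiled on 6 oligonucleotide arrays in 1 colour. The knockout group held 3 arrays labelled fl-DNMT1/Foxp3cre, in which Foxp3-driven Cre recombinase removes a floxed Dnmt1, the maintenance DNA methyltransferase. The control group held 3 arrays of wild type mice, and all 6 samples were labelled with the strain C57BL6. The wild type label names neither the floxed allele nor Cre, so effects of those alleles and of the deletion cannot be told apart. The sources used here do not give the age or sex of the mice. The 3 samples of a group are called independent, but separate animals are not stated, so that what the p-values gauge is the spread of these samples, which may in part be technical.

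Array medians lay between 5.69 and 5.77 on the log2 scale, and precision is limited by having 6 arrays. Pairs of arrays had Pearson correlations (over probe sets, which are no replicates) of 0.990 to 0.993 within the knockout group, 0.996 to 0.997 within the wild type group and 0.984 to 0.991 between the groups. In 1 probe set Dnmt1 itself averaged 8.96 ± 0.34 in knockout and 9.50 ± 0.07 in wild type arrays (SD, n = 3 each), a difference of -0.53 (limma adjusted p = 0.162). Its other probe set had a difference of -0.72 (adjusted p = 0.113), and all knockout arrays lay below the wild type arrays in both. Knockout replicates 1, 2 and 3 read 8.67, 8.89 and 9.34 in the first probe set and 8.42, 8.62 and 9.17 in the other. Replicate 3 was thus the knockout array nearest the wild type arrays in both. The sources used here do not say whether the Dnmt1 probes fall in the deleted part. Foxp3 averaged 8.84 ± 0.42 in knockout and 9.50 ± 0.02 in wild type arrays, a difference of -0.66 (adjusted p = 0.151). All 17 probe sets of T cell and Treg markers had negative differences, and those of Il2ra and Ikzf2 passed the test, though neither call held without any one wild type array (adjusted p up to 0.187). All 17 probe sets of neutrophil markers had positive differences, and 10 of them passed. All 10 lost the call without wild type replicate 1 and without wild type replicate 3, 9 without wild type replicate 2 and 5 without knockout replicate 3 (adjusted p up to 0.187). Over all probe sets 380 (1.68%) were called, and 45, 79 and 29 without wild type replicates 1, 2 and 3. Without knockout replicate 3 the number was 184. Such losses, here and below, are thus not particular to the genes named. The mean of the neutrophil markers was 7.86, 9.81 and 8.51 in the knockout arrays, against 6.05, 6.25 and 5.89 in the wild type arrays. Knockout replicate 2 was thus the highest in neutrophil markers, and the groups did not overlap. All 24 probe sets of monocyte and macrophage markers also had positive differences, and 4 passed. Of 13 erythroid probe sets 12 were positive and 1 passed, where 45.2% of all probe sets were positive. Each of these calls was lost without wild type replicate 3. The monocyte and macrophage mean was 6.07, 6.22 and 6.16 in the knockout arrays, against 5.34, 5.49 and 4.98 in the wild type arrays.

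MHC class I molecules display peptides from inside the cell to CD8 T cells and to receptors of natural killer cells. Proteasomes cut proteins into peptides, the transporter carries them into the endoplasmic reticulum, and tapasin holds empty heavy chains with B2m at the transporter until a fitting peptide is bound. Interferons raise the transcription of most of these genes and exchange the catalytic proteasome subunits for their immunoproteasome counterparts. Lymphocytes express class I at rest, so the route is active in T cells without infection.

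None of the 30 probe sets passed the test of the knockout against the wild type group, a limma fit over 22626 probe sets called at a Benjamini-Hochberg adjusted p under 0.05. Over all probe sets 380 were called, 1.68% of those tested, with 270 (1.19%) higher and 110 (0.486%) lower in the knockout group. At an unadjusted p under 0.05, 6 of the 30 were counted and all 6 were higher in the knockout group. Over all probe sets 3767 (16.6%) reached that level, of which 1704 were higher. Several of the 6 are H2-K1 or H2-D1 probe sets that can share transcripts, so they are not 6 separate genes. The differences of the 30 had a median of 0.10, against -0.02 over all probe sets, and 21 were positive and 9 negative, where 45.2% of all were positive. In 9 of the 30 every knockout array lay above every wild type array, against 9.79% of all probe sets. In 0 of the 30 every knockout array lay below, against 13.6% of all. Those 9 probe sets came from H2-K1, H2-D1, B2m, Tapbp, Psmb8, Psmb9 and Psmb10. Values are of a bulk sample, in which fewer cells of a type and less RNA per cell cannot be told apart.

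**Figure D1:**
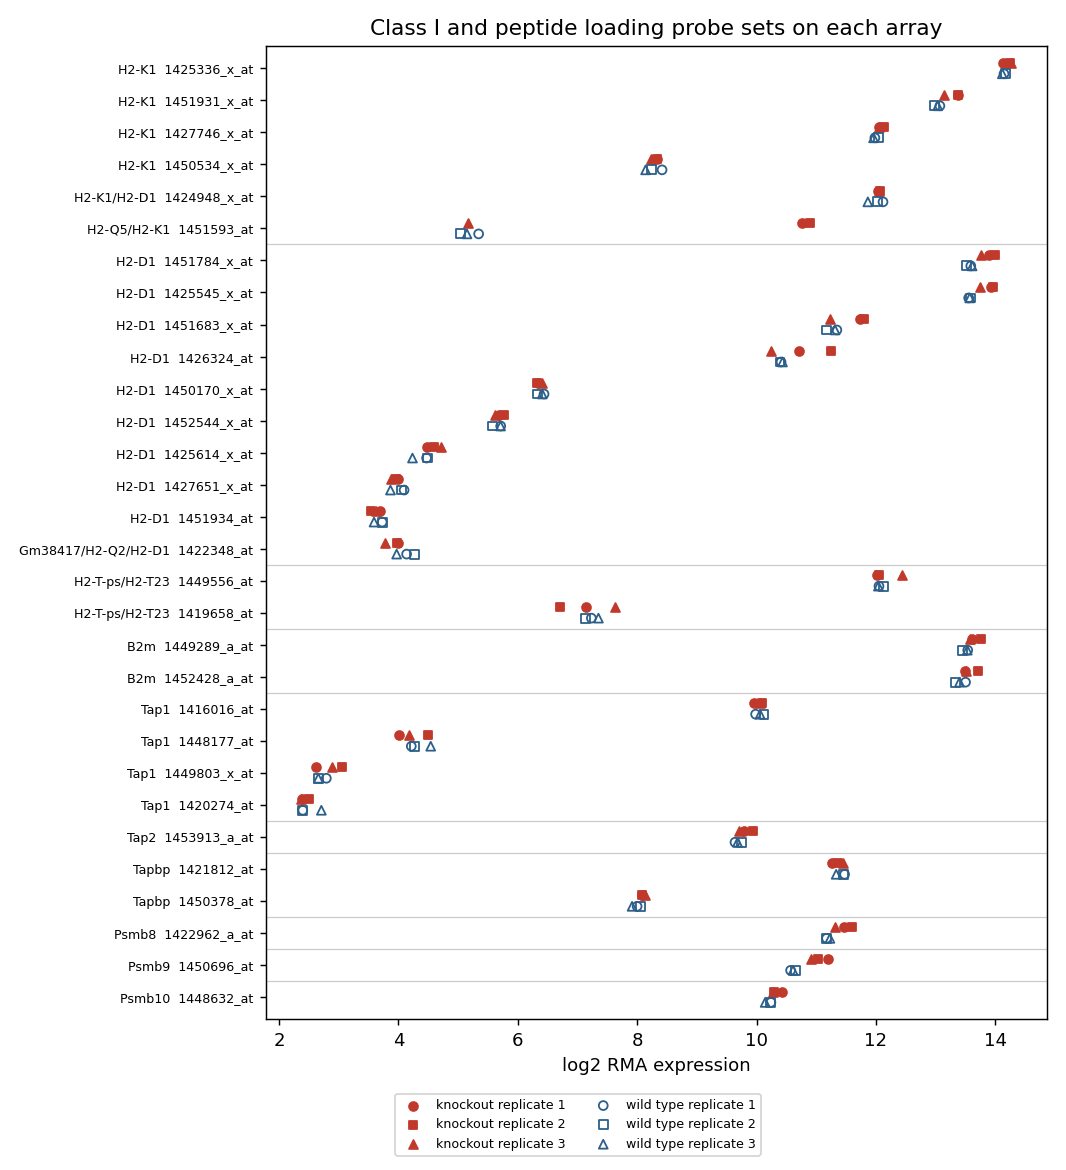
Log2 RMA expression of the 30 probe sets (rows, grouped by gene) on each array, with 3 knockout arrays as filled red symbols in the upper line of a row and 3 wild type arrays as open blue symbols in the lower line. Most rows show the 2 groups close together, and the probe set of H2-Q5 and H2-K1 has knockout replicates 1 and 2 near 10.76 and 10.90, with replicate 3 among the wild type arrays. Positions along the axis are comparable within a row, not between rows.

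H2-K1 and H2-D1 encode the classical class I heavy chains, which present peptides to CD8 T cells, and they are near-identical over long stretches. Their probe sets therefore cannot be taken as separate measures of the 2 genes. Of the 16 probe sets that carry either symbol, 12 have the suffix _x_at, which marks probes that also match other transcripts. The likeness extends to their promoters, which are shown for that reason, from RefSeq on the build GRCm38.p6. The stretch of H2-K1 is chr17:34000349-34000468 on the minus strand and that of H2-D1 is chr17:35262913-35263032 on the plus strand, both printed in the direction of transcription. Capitals mark, from left to right, a palindromic kappa B site of enhancer A (searched with any base at its centre), a match to the core of an interferon regulatory factor site (AANNGAAA, here on the opposite strand), a cyclic AMP response element core (TGACG) and a CCAAT box on the opposite strand.
H2-K1: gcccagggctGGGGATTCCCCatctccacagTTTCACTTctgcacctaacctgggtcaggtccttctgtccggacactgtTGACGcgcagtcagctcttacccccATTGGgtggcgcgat
H2-D1: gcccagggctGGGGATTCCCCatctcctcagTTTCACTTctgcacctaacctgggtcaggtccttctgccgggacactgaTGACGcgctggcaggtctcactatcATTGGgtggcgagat
Of these 120 aligned bases 108 were identical (90.0%). In the 250 bases before the start site, searched on both strands, the kappa B palindrome was found in 0.0457% of 32851 mouse promoters and AANNGAAA in 21.3%. TGACG was found in 17.8% and CCAAT in 33.8%, and none of these motifs overlaps another in the stretches shown. Of the 9 member genes in the promoter table, H2-K1 and H2-D1 held the kappa B palindrome, and H2-K1, H2-D1, H2-T23 and B2m held the interferon regulatory factor core. Only that palindrome was searched, so other spellings of a kappa B site, in B2m or elsewhere, were not counted. Such a match is a description of letters, not a measured site.

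The 4 H2-K1 probe sets with that symbol alone had differences of 0.03 to 0.26, and none passed the test. The most intense, 1425336_x_at, read 14.12, 14.25 and 14.26 in the knockout arrays, against 14.15, 14.18 and 14.12 in the wild type arrays. The groups overlapped, and the difference was 0.07 (SE 0.08, 1.05-fold with a 95% interval of 0.923 to 1.19, limma adjusted p = 0.723). Probe set 1451931_x_at read 13.37, 13.37 and 13.14 in the knockout arrays, against 13.07, 12.99 and 13.04 in the wild type arrays. All 3 knockout arrays were above the wild type arrays, by 0.26 on average (SE 0.09, 1.20-fold, 95% interval 1.04 to 1.39), and the difference did not pass the test (adjusted p = 0.211). In 1427746_x_at the knockout arrays, at 12.06, 12.13 and 12.06, lay narrowly above the wild type arrays, at 11.98, 12.05 and 11.96, with a difference of 0.08 (adjusted p = 0.620). The remaining one, 1450534_x_at, had a difference of 0.03. Probe set 1424948_x_at, shared by H2-K1 and H2-D1, had 12.03, 12.07 and 12.05 in the knockout arrays, against 12.12, 12.02 and 11.86 in the wild type arrays, and the groups overlapped.

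The probe sets of H2-D1 with the highest signal, 4 in number, all had differences of 0.31 or 0.32, and none of them passed the test. In 1425545_x_at the knockout arrays read 13.93, 13.96 and 13.75, and the wild type arrays 13.55, 13.58 and 13.57. Every knockout array was above the wild type arrays, with a difference of 0.31 (SE 0.09, 1.24-fold, 95% interval 1.08 to 1.43, adjusted p = 0.131). With trend and robust variance it passed (adjusted p = 0.0379). In 1451784_x_at the knockout arrays read 13.90, 14.00 and 13.75, and the wild type arrays 13.59, 13.51 and 13.61, again without overlap (adjusted p = 0.148). The other 2 owed their means to knockout replicates 1 and 2. In 1426324_at these read 10.72 and 11.24 and replicate 3 read 10.24, below all wild type arrays, which read 10.41, 10.39 and 10.43. In 1451683_x_at they read 11.73 and 11.81 and replicate 3 read 11.23, within the wild type arrays, which read 11.35, 11.17 and 11.32. The adjusted p-values of this pair were 0.512 and 0.357. The 5 other probe sets of H2-D1 alone differed by -0.06 to 0.20, and 4 of them were below the median level of the arrays. The probe set shared with Gm38417 and H2-Q2 had a difference of -0.21 (adjusted p = 0.373).

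One probe set split the knockout group. Probe set 1451593_at, annotated to H2-Q5 and H2-K1, read 10.76 and 10.90 in knockout replicates 1 and 2 and 5.17 in knockout replicate 3. The wild type arrays read 5.34, 5.03 and 5.15, so that replicate 3 lay among them. The mean difference of 3.77 (SE 1.37) corresponds to 13.6-fold with a 95% interval of 1.51 to 123, and it did not pass the test (limma adjusted p = 0.228). Without knockout replicate 3, the array that stood apart, the difference was 5.66 and passed (adjusted p = 2.6e-05), an outcome that follows from the split itself. The 4 probe sets of H2-K1 alone showed no such split, with ranges of 0.07 to 0.23 among the knockout arrays. H2-Q5 is a nonclassical class I gene of the Q cluster, and which of the annotated genes gave the signal cannot be told from the probe set. A probe set of H2-Q5 alone, 1450582_at, read 4.67, 5.80 and 3.39 in the knockout arrays, against 3.24, 3.46 and 3.77 in the wild type arrays, with replicate 3 again among the wild type arrays.

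H2-T23 encodes the heavy chain of Qa-1, a nonclassical class I molecule that is the ligand of the CD94 and NKG2A receptor. Both of its probe sets also carry the symbol of the pseudogene H2-T-ps. In 1449556_at the knockout arrays read 12.02, 12.06 and 12.44, against 12.05, 12.13 and 12.04 in the wild type arrays, a difference of 0.10 (SE 0.12, 95% interval 0.879 to 1.30-fold, adjusted p = 0.740). In 1419658_at they read 7.14, 6.71 and 7.63, against 7.23, 7.14 and 7.35 in the wild type arrays, a difference of -0.08 (adjusted p = 0.883). Knockout replicate 3 was the highest of the 6 arrays in both, and without it the difference of 1449556_at was -0.04. The groups overlapped in both probe sets.

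B2m is the light chain that every classical heavy chain needs to reach the surface, and it lies outside the MHC, on chromosome 2. Its promoter is shown because it carries matches to the interferon factor core, TGACG and CCAAT in the order seen in the heavy chains, without the kappa B palindrome. The stretch is chr2:122147530-122147649 on the plus strand of GRCm38.p6, from RefSeq, and capitals mark AANNGAAA, TGACG and a CCAAT box on the opposite strand.
B2m: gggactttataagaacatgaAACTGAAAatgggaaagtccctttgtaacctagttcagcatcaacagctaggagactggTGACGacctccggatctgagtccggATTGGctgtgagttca
Probe set 1449289_a_at read 13.60, 13.75 and 13.57 in the knockout arrays, against 13.54, 13.46 and 13.53 in the wild type arrays. Every knockout array was above the wild type arrays by a narrow margin, with a difference of 0.13 (SE 0.08, 1.10-fold, 95% interval 0.960 to 1.25, adjusted p = 0.472). Probe set 1452428_a_at read 13.49, 13.71 and 13.51 in the knockout arrays, against 13.50, 13.34 and 13.40 in the wild type arrays. Its difference was 0.16 (adjusted p = 0.448), and knockout replicate 1 lay just below the highest wild type array. Knockout replicate 2, the array with the highest neutrophil markers, was the highest in both probe sets. With the mean of the neutrophil markers as a covariate in the limma fit, the differences turned to -0.07 and -0.13 (adjusted p = 0.940 and 0.880). The markers did not overlap between the groups, so that fit cannot tell genotype and neutrophil transcripts apart.

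The transporter and tapasin differed little. Tap1 and Tap2 form the pump that moves peptides into the endoplasmic reticulum. The Tap1 probe set above the median level, 1416016_at, read 9.95, 10.09 and 10.05 in the knockout arrays, against 9.98, 10.12 and 10.06 in the wild type arrays. The arrays of the 2 groups interleaved, and the difference of -0.02 had a 95% interval of 0.863 to 1.12-fold (adjusted p = 0.911) and turned sign after cyclic loess, without knockout replicate 1 and without wild type replicate 2. The 3 other Tap1 probe sets lay below the median level and differed by -0.12 to 0.15. Tap2 read 9.80, 9.94 and 9.70 in the knockout arrays, against 9.64, 9.75 and 9.68 in the wild type arrays, with overlap and a difference of 0.12 (adjusted p = 0.545). Tapbp had a pair of probe sets with opposite signs. In 1421812_at the knockout arrays read 11.26, 11.37 and 11.44, against 11.47, 11.46 and 11.33 in the wild type arrays, a difference of -0.07 (adjusted p = 0.740). In 1450378_at the knockout arrays lay between 8.08 and 8.12, against 7.91 to 8.06 in the wild type arrays, a difference of 0.11 without overlap (adjusted p = 0.533).

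Psmb9 had the lowest p of the 30 probe sets. It encodes the immunoproteasome subunit beta 1i, which replaces Psmb6 in newly built proteasomes. Its probe set read 11.19, 11.03 and 10.91 in the knockout arrays, against 10.57, 10.65 and 10.61 in the wild type arrays. The lowest knockout array was above the highest wild type array, and the difference was 0.43 (SE 0.09), or 1.35-fold with a 95% interval of 1.16 to 1.57. It did not pass the test (limma adjusted p = 0.0723). With a mean-dependent and robust variance in limma it did (adjusted p = 0.0308), and over the 16 alternatives run for it the adjusted p ranged from 0.0308 to 1.00. Leaving out single arrays kept the difference between 0.36 and 0.50. Psmb8 encodes beta 5i, the counterpart of Psmb5. It read 11.47, 11.59 and 11.31 in the knockout arrays, against 11.17, 11.17 and 11.23 in the wild type arrays, with no overlap and a difference of 0.27 (SE 0.09, 1.20-fold, 95% interval 1.04 to 1.40, adjusted p = 0.208). Psmb10 encodes beta 2i, the counterpart of Psmb7, and lies on chromosome 8, away from the MHC. It read 10.42, 10.29 and 10.27 in the knockout arrays, against 10.24, 10.23 and 10.14 in the wild type arrays, a difference of 0.12 without overlap (adjusted p = 0.498).

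The constitutive counterparts had differences near 0. Psmb6 averaged 9.88 ± 0.11 in the knockout and 9.89 ± 0.04 in the wild type arrays (SD, n = 3 each), a difference of -0.01. Psmb7 had a difference of 0.01 and Psmb5 one of 0.08, and the groups overlapped in all 3 genes. The adjusted p-values were 0.972 for Psmb6, 0.968 for Psmb7 and 0.687 for Psmb5. Whether an immunoproteasome subunit differed more between the groups than its counterpart was not tested.

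**Figure D2:**
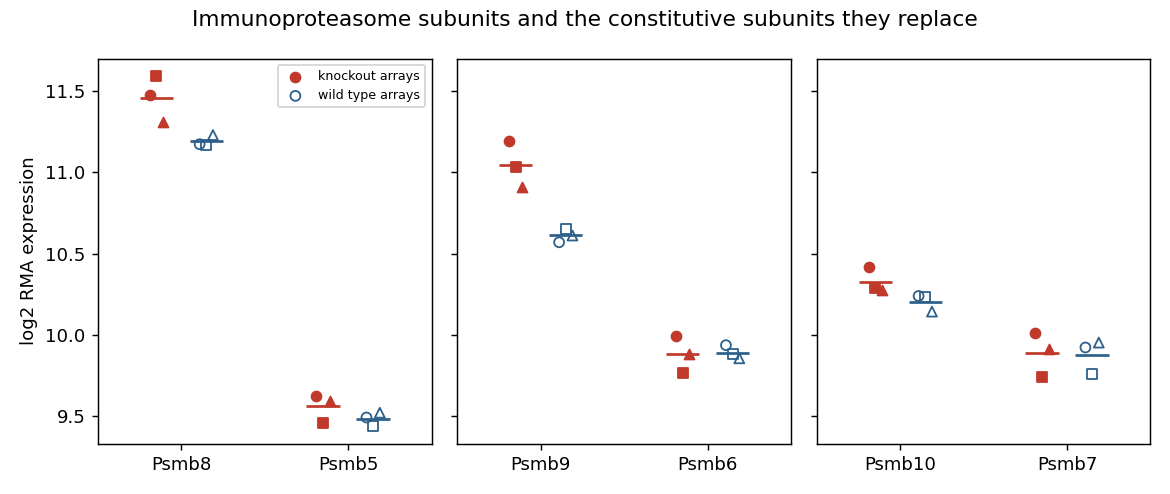
Log2 RMA expression of each immunoproteasome subunit and of the constitutive subunit it replaces, in knockout arrays (filled red, left of each gene) and wild type arrays (open blue, right), with circle, square and triangle for replicates 1, 2 and 3 and a bar at the group mean of 3 arrays. Psmb8, Psmb9 and Psmb10 have all 3 knockout arrays above the wild type arrays, and Psmb5, Psmb6 and Psmb7 overlap. Heights are comparable between groups of a gene, not between genes.

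Psmb9 and Tap1 stand back to back in the MHC and start within a common promoter. That shared stretch is shown because one of the pair had the lowest p of all members and the other a difference near 0. It is chr17:34187331-34187555 of GRCm38.p6, from RefSeq, and is written on the plus strand, in the direction of Tap1. Capitals mark a CCAAT box and TGACG.
Psmb9 and Tap1: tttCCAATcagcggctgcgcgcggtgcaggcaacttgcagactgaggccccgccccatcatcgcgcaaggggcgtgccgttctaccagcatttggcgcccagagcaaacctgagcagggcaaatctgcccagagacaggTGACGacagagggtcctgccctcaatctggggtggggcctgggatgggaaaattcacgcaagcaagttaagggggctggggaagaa
The letters AANNGAAA were not in this window, nor in those of Psmb8, Psmb10 and Tapbp.

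**Figure D3:**
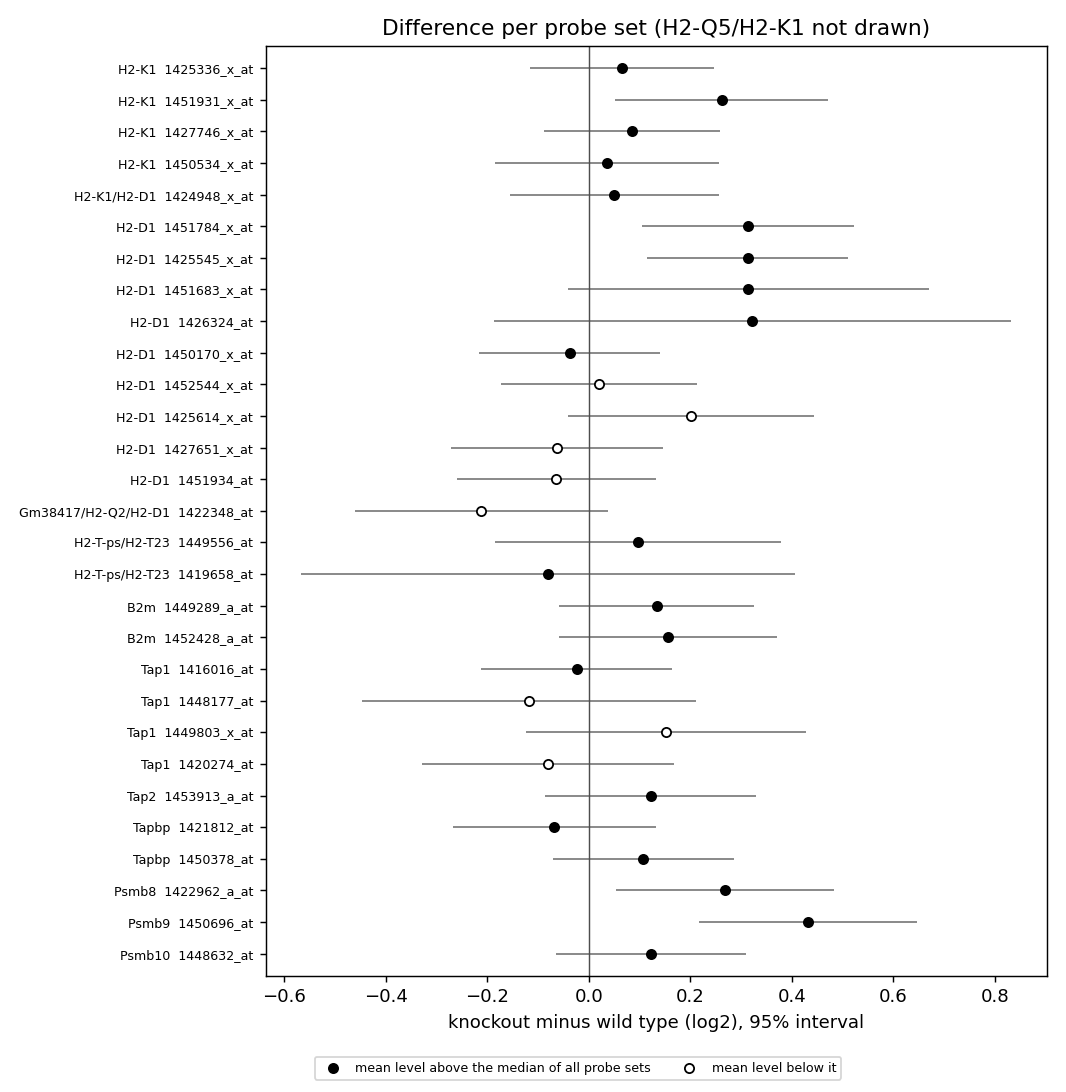
Difference of group means, knockout minus wild type (log2), with its 95% interval from limma for 29 of the 30 probe sets, filled where the mean level lies above the median of all probe sets and open where it lies below. The probe set of H2-Q5 and H2-K1, at 3.77, is off this scale and not drawn. Psmb9, at 0.43, lies farthest to the right, the H2-D1 probe sets 1425545_x_at and 1451784_x_at lie at 0.31, and most other intervals include 0.

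The knockout arrays also varied more among themselves than the wild type arrays did. The range over the 3 arrays was wider in the knockout than in the wild type group for 21 of the 30 probe sets. It exceeded 0.5 for 4 of the 30 in the knockout group and for 0 of the 30 in the wild type group. Those 4 were 1451593_at (H2-Q5 and H2-K1), 1426324_at and 1451683_x_at (H2-D1) and 1419658_at (H2-T23). Over all probe sets the median SD was 0.124 in the knockout and 0.0987 in the wild type group. The median range over all was 0.237 and 0.188, so a wider knockout spread is not particular to the members. The shares of all probe sets that match the counts above were not taken.

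Because 3 of those 4 set knockout replicate 3 apart from replicates 1 and 2 in the same direction, the whole MHC stretch from Tapbp to H2-M3 was set out in gene order, a choice made after these values were seen. Of its 202 probe sets, 14 (6.93%) had a range over 1 among the knockout arrays, against 544 of all 22626 (2.40%). In the wild type group 0 of the 202 had such a range, against 117 of all (0.517%). Those 14 included 6 of class II genes, which antigen-presenting cells express, and 5 of the class I genes H2-Q5, H2-K1 and H2-T3. H2-T3 encodes the thymus leukaemia antigen, a nonclassical class I molecule. Its probe set 1452548_x_at read 7.32, 6.46 and 4.53 in the knockout arrays, against 4.79, 4.96 and 4.73 in the wild type arrays. The one shared with H2-T18, 1452547_s_at, read 6.23, 5.66 and 3.87 in the knockout arrays, against 3.61, 3.78 and 3.51 in the wild type arrays. In both, knockout replicates 1 and 2 were high and replicate 3 was near the wild type arrays.

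That pattern was counted over the arrays as probe sets in which 1 knockout array lay within 0.5 of the wild type mean while the other 2 stood more than 1 from all the rest. Replicate 3 was the array at the wild type level in 4 probe sets, of which 3 lay between Tapbp and H2-M3. Replicate 1 was so in 13 and replicate 2 in 4, with 0 in the region for each. The 3 in the region were 1451593_at, whose values prompted the search, and 1452548_x_at and 1452547_s_at, which both carry the symbol H2-T3. The count therefore describes these values and is no separate support for the region. All samples were labelled C57BL6. The sources used here do not give the MHC haplotype of the animals, and its part in these values was not tested. Of the knockout arrays, replicate 3 also had the Dnmt1 values nearest the wild type arrays (9.34 and 9.17) and the lowest Foxp3 value (8.43). Whether either bears on the split was not tested. Without knockout replicate 3, the H2-T3 probe sets 1452548_x_at and 1452547_s_at passed the test as well. They were singled out because that array stood apart, so this outcome was largely fixed in advance.

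**Figure D4:**
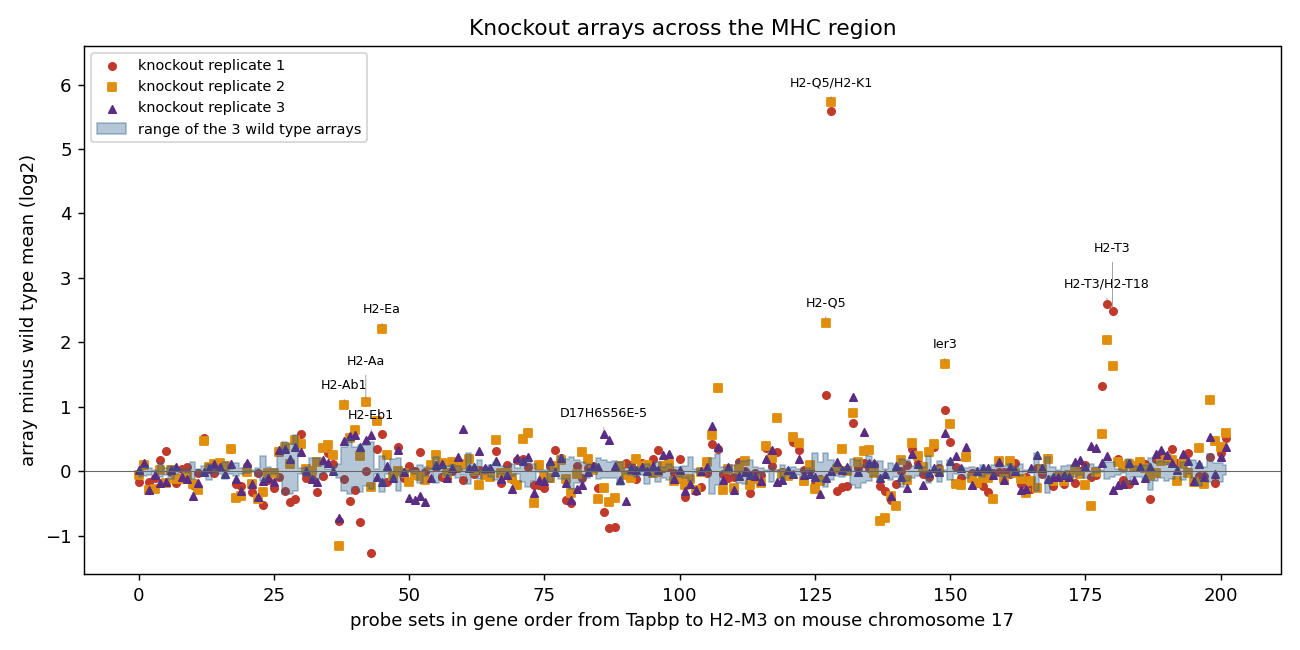
Each knockout array minus the wild type mean (log2) for the 202 probe sets between Tapbp and H2-M3, in gene order along mouse chromosome 17, with replicates 1, 2 and 3 as red circles, orange squares and purple triangles and the range of the 3 wild type arrays as a blue band. Most probe sets lie near 0. At H2-Q5/H2-K1 and H2-T3 replicates 1 and 2 lie far above the band and replicate 3 on or near it.

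Among other class I heavy chains, 2 of 27 probe sets rose and none fell, against 1.19% and 0.486% of all probe sets, with a median difference of 0.02. These lists of related genes, like the members, were chosen with earlier results known. H2-M3, which presents N-formylated peptides, read 10.19, 10.27 and 10.05 in the knockout arrays, against 9.62, 9.77 and 9.66 in the wild type arrays. The groups were well apart and the difference was 0.49 (SE 0.09, 1.40-fold, 95% interval 1.21 to 1.62, adjusted p = 0.0465). That call was close to the threshold and was lost under 11 of the 16 alternatives run for it. Leaving out any single array ended it, with adjusted p-values of 0.0634 to 0.189. H2-Q10, which encodes a secreted class I molecule made chiefly by the liver, read 5.87, 6.02 and 6.27 in the knockout arrays, against 4.91, 5.15 and 5.31 in the wild type arrays, a difference of 0.93 (SE 0.14, adjusted p = 0.0232). Without knockout replicate 3 it no longer passed (adjusted p = 0.0580), nor without any one wild type array (0.0768 to 0.101).

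The machinery around the members showed no called probe set. That held for 0 of 29 probe sets of other loading and trimming genes (3 at an unadjusted p under 0.05), 0 of 18 of proteasome activators and assembly factors (1), 0 of 26 of the constitutive 20S proteasome (1) and 0 of 37 of its 19S cap (1). Their median differences were -0.03, -0.08, 0.01 and -0.03. Among regulators of class I transcription 0 of 28 probe sets passed, with 7 at an unadjusted p under 0.05. Over all probe sets 1.68% passed and 16.6% reached that unadjusted level. Ifngr2, a subunit of the interferon gamma receptor, read 7.32, 7.09 and 7.07 in the knockout arrays, against 7.64, 7.50 and 7.51 in the wild type arrays (difference -0.39, adjusted p = 0.105). A second Ifngr2 probe set had a difference of -0.25 (adjusted p = 0.290), and its partner Ifngr1 one of 0.56 (adjusted p = 0.161). For the type I interferon receptor, a probe set of Ifnar2 differed by -0.37 (adjusted p = 0.136) and one of Ifnar1 by -0.38 (adjusted p = 0.152). Every knockout array lay above every wild type array in 4 of the 28 probe sets and below in 8, against 9.79% and 13.6% of all probe sets.

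Several interferon-induced genes rose. In the type I interferon list 4 of 35 probe sets rose and none fell, against 1.19% and 0.486% of all probe sets. The list had a median difference of 0.37, and 20 of its 35 probe sets were at an unadjusted p under 0.05, against 16.6% of all. The 4 belong to Isg20, Usp18, Oas2 and Oas1a, with differences of 0.67, 0.78, 0.98 and 0.92. The first is an exonuclease against viral RNA, Usp18 restrains interferon signalling, and the Oas enzymes sense double-stranded RNA. In the interferon gamma list 2 of 22 rose, both of the GTPase gene Iigp1, with a list median of 0.08. Each of these 6 calls was lost without wild type replicate 1 and without wild type replicate 3, and 4 of them (Usp18, Oas1a, Oas2 and 1 of Iigp1) also without wild type replicate 2 or knockout replicate 3. The highest adjusted p with an array left out was 0.177, for Oas1a. Among MHC class II genes 1 of 19 fell, a probe set of H2-Ob and Gm20506 (-0.89), a call that was lost without any one wild type array (adjusted p up to 0.107). The class II list had a median of 0.14.

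Receptors of class I molecules held 6 of the 8 called probe sets in the lists of the pathway. Of 24 probe sets 3 rose and 3 fell, against 1.19% and 0.486% of all probe sets. Klrc1, which encodes NKG2A, the receptor chain for the H2-T23 product, read 8.70, 9.57 and 9.61 in the knockout arrays, against 7.62, 7.67 and 7.54 in the wild type arrays. All knockout arrays were above, with a difference of 1.68 (SE 0.23, 3.21-fold, 95% interval 2.23 to 4.62, adjusted p = 0.0190), and its second probe set rose by 1.89. Klra8, which encodes the activating receptor Ly49H, read 4.04, 3.70 and 4.10 in the knockout arrays, against 6.41, 5.70 and 6.08 in the wild type arrays (difference -2.12, adjusted p = 0.00480). Klra7 also fell, as did a probe set shared by Klra9 and Klra3, and Klra5 rose. Ly49 genes are close copies of each other, so these probe sets may share transcripts. The Klra8 call held with any single array left out (adjusted p 0.00681 to 0.0430). The calls of Klrc1, Klra7, Klra5 and the shared probe set were lost without knockout replicate 3 and without any one wild type array, with adjusted p-values of up to 0.126, and the second probe set of Klrc1 did not pass without knockout replicate 2 either. Ncr1, a marker of natural killer cells, rose by 2.50 beside them (7.08, 8.74 and 8.19 in the knockout arrays, against 5.43, 5.51 and 5.58 in the wild type arrays). Its adjusted p of 0.0223 became 0.106 at most with an array left out. The part of natural killer cells in these receptor values was not tested.

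**Figure D5:**
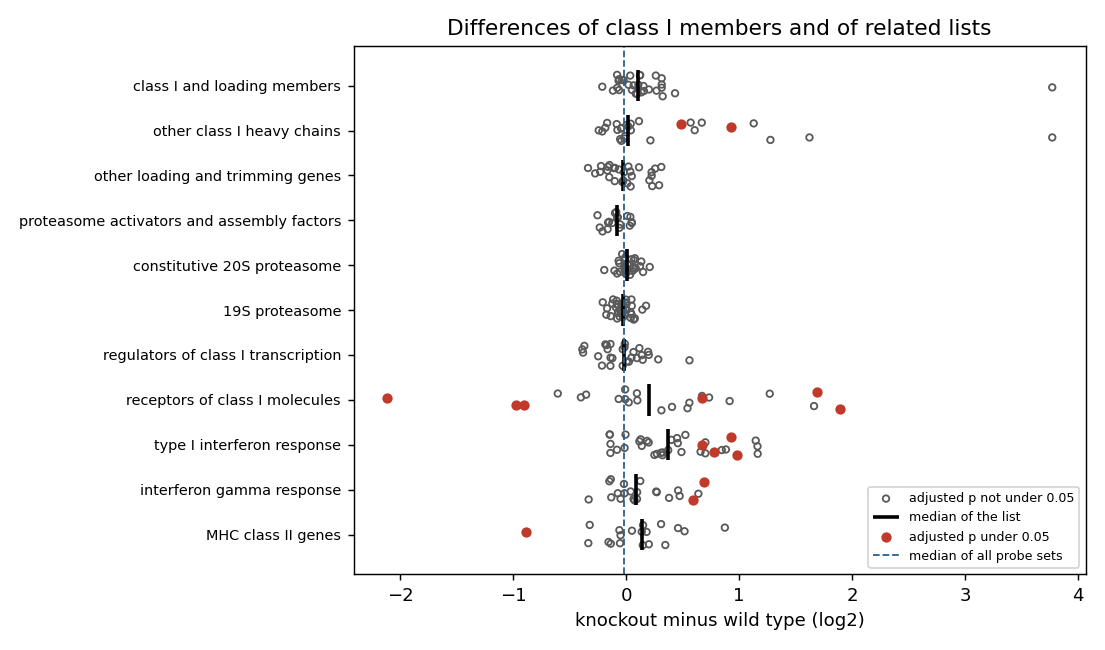
Differences of group means, knockout minus wild type (log2), for every probe set of the members and of 10 related lists, with called probe sets in red, a black bar at each list's median and a dashed line at the median of all probe sets. The member row has no red point and a median of 0.10, and the receptor row spans -2.12 to 1.89.

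Averaged over the 10 genes, each by its most intense probe set and centred on its mean over the arrays, the members stood at 0.05, 0.12 and 0.05 in the knockout arrays, against -0.08, -0.05 and -0.09 in the wild type arrays. Knockout replicate 2 was the highest array. H2-D1, Psmb8 and Psmb9 followed this mean most closely (Pearson r over 6 arrays of 0.93, 0.92 and 0.89). H2-T23 (0.22) followed it little, and Tap1 (0.00) and Tapbp (-0.36) did not. Each r is raised by the gene's own share in the mean. Of 10354 other probe sets with 1 symbol and at least the median level, those most like it were of Serpinb1a (0.996), Atp6v0b (0.993), Ehd1 (0.992), Camp (0.991) and Parp12 (0.991). Serpinb1a inhibits neutrophil serine proteases and Camp is a neutrophil granule peptide, while Parp12 is induced by interferon. The 6 arrays share the grouping by genotype, so these correlations carry no p. Camp averaged 11.18 ± 1.28 in the knockout and 6.64 ± 0.56 in the wild type arrays (SD, n = 3 each), and reached 12.54 in knockout replicate 2.

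With the neutrophil covariate, the median difference of the 30 probe sets was -0.03, and 13 of them turned sign, with adjusted p-values of 0.499 to 0.989 over the 30. The difference of Psmb9 was 0.57 and that of Psmb10 0.24, while that of Psmb8 was 0.07. Those of the H2-D1 probe sets 1425545_x_at and 1451784_x_at were 0.21 and 0.15. Among those that turned sign were both of B2m, Tap2 (-0.13), H2-K1 1425336_x_at (-0.09) and H2-D1 1426324_at (-0.54). That fit called 7 probe sets over all. The markers did not overlap between the groups, so that genotype and neutrophil transcripts cannot be told apart in this design. The means of the monocyte and macrophage markers and of the erythroid markers did not overlap either, and no fit with them as a covariate was run.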

How the data were processed

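Total RNA of 6 samples was hybridised to oligonucleotide arrays after biotin labelling, per the labels. The authors deposited log2 expression values, 1 per probe set and array. The submitters' processing notes name RMA, and the sources used here give neither its version nor its settings. RMA corrects background, normalises between arrays and combines probes, so total RNA per cell is not measured and low signals are compressed. The deposited log2 values ran from 1.93 to 14.70.

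Of 22690 probe sets, 64 platform controls were left out. The other 22626 were named through the platform annotation, whose symbols can be old: 20380 had 1 symbol, 691 several and 1555 none. The 2 groups were set against each other in R 4.3.3 with limma 3.58.1 (lmFit, then eBayes, two-sided), with no filter, and p-values were adjusted over all 22626 by Benjamini-Hochberg and called under 0.05. Differences are knockout minus wild type. The fit was tested on simulated data.

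The members and the lists were chosen with earlier results of these data known, and lists are described by counts and medians, without a set test. Named genes are all members, from each list the called genes of lowest p, up to 4 (or the lowest pair where fewer passed), Dnmt1, Foxp3, Psmb5, Psmb6, Psmb7 and the 5 probe sets most correlated with the members. Not every gene that this rule picks is named in the text. From the monocyte and macrophage, dendritic cell, B cell and erythroid lists no gene is named. Chosen after their values were seen were H2-Q5, H2-T3, H2-T18, H2-Ob, Ifngr1, Ifnar1, Klra9 and Klra3. Neighbour order and promoters came from RefSeq tables of GRCm38.p6, where all 10 members were found, 9 of them with a promoter, and motifs were searched in Python 3.11.15. Figures used matplotlib 3.10.9.

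Alternatives were quantile normalisation, median centring, cyclic loess, leaving out the dimmest 40%, 1 probe set or the mean of probe sets per gene, array weights, a variance with trend and robust fitting, treat at 0.25, a replicate block, neutrophil markers as a covariate, and leaving out each array.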

Additional observations from a re-analysis of the deposited data

How the results depend on the processing

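Over all probe sets 380 were called, and 0 of the 30 class I probe sets. Other settings gave 236 (brightest probe set per gene), 218 (replicate block), 91 (treat at 0.25) and 7 (neutrophil covariate). More were called with array weights (503), trend and robust variance (491), the dimmest 40% left out (420), median centring (404) and quantile normalisation (391). Of the class I probe sets, 2 were called with trend and robust variance (Psmb9 and an H2-D1 probe set) and 1 without knockout replicate 3. Leaving out single arrays gave 29 to 756 calls over all and 0 to 1 of the members. Of the related pathway lists 8 probe sets were called, against 2 with treat, 0 with the neutrophil covariate and 1 to 13 with an array left out. Of 452 member comparisons with an alternative 26 turned sign, none of a called value, over 16 probe sets, 13 of the turns with the neutrophil covariate. The cause was not tested. The replicate numbers did not pair the samples (correlations of deviations -0.08, 0.11 and -0.01), and with the block 0 of the 30 members were called. Rescaling moved the median over all probe sets to between -0.05 and 0.00. Of the 30 probe sets 8 lay below the median level, where RMA compresses differences.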
